A study of Mus musculus with 2 samples.

Results

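The autophagy machinery is described here as 40 genes, chosen by their known roles. They comprise 17 genes of initiation and membrane supply, 16 genes of conjugation with the ATG8 proteins, and 7 cargo receptors and tethers. A gene's value was the number of reads that cross its annotated introns, called spliced reads below. Of the 40 genes, 37 had matched introns, and all 37 reached 20 spliced reads in the sum of both libraries, as did 8363 of the 10539 genes with a matched intron.

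The libraries came from peritoneal macrophages of male mice of the strain C57BL/6JJcl, elicited with the irritant thioglycolate and kept as adherent cells. The cells of the IL-10 library received interleukin 10, a cytokine that restrains inflammatory responses, at 100 ng/ml for 4 h, and those of the other library were untreated. There was 1 library per group, and the number of mice behind each is not given in the sources used here. The comparison asks how the transcriptome of these macrophages differs with IL-10.

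Autophagy encloses cytoplasm in a double membrane, the autophagosome, which fuses with the lysosome so that its content is degraded. A kinase complex and a lipid kinase complex start the membrane, lipid carriers feed it, and ubiquitin-like conjugation attaches ATG8 proteins to it. Receptors that bind both ubiquitin and ATG8 proteins bring cargo in, and in macrophages the same pathway clears damaged organelles and intracellular bacteria and limits inflammasome activity.

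The IL-10 library held 3998954 spliced reads and the untreated library 4035991. Of these, 3839470 (96.0%) with IL-10 and 3868136 (95.8%) without fell on introns of 1 named gene. Every ratio below is the gene's share of these reads in the IL-10 library over its share in the untreated library. Its 95% interval is an exact conditional binomial interval and covers counting error only, since reads without molecular identifiers are not independent molecules. A read counted at 2 introns enters it as 2, which the interval does not allow for. With 1 library per group, no ratio has a replicate check, and no test of the condition could be made. Of 4 genes listed for the IL-10 response, Stat3 had 1516 reads in the IL-10 library against 687 in the untreated library (ratio 2.22). Bcl3, Il4ra and Sbno2 stood at 2.58, 2.77 and 2.34. These genes were chosen with earlier results of these data known, so their ratios are no independent check of the treatment. All 7 macrophage markers were measured, with 59782 reads in the IL-10 library against 76657 in the untreated library. Lyz2 alone had 31849 of these reads with IL-10 against 45047 without. The markers did not share a direction, with intervals above 1 for 2 (Itgam and Fcgr1) and below 1 for 4. The value of Itgam rests on a small part of the gene, with 2 of the 29 introns of its transcript matched. Of 8 neutrophil markers, 3 reached 20 reads (720 reads with IL-10 against 661 without in sum), and S100a8, S100a9, Ly6g, Retnlg and Camp had no matched intron. Fibroblast and mesothelial markers had 739 reads with IL-10 against 729 without over 4 measured genes of 5, the B cell gene Ighm 34 with IL-10 and 42 without, and no T cell marker reached 20 reads. Of 4 mast cell and eosinophil markers, 2 reached 20 reads, with 96 in the IL-10 library against 59 in the untreated library. Siglecf had 86 of these reads with IL-10 against 48 without, and Tpsb2 had 10 with IL-10 against 11 without. The part of other cell types in the ratios below was not tested. In bulk RNA, fewer cells of a type and less RNA per cell cannot be told apart.

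Most autophagy genes had close to the same share of spliced reads in both libraries. In sum, the 37 measured genes had 13362 reads in the IL-10 library against 14213 in the untreated library, a ratio of 0.947 (95% interval 0.925 to 0.970). Without Sqstm1, the member with the most reads, the summed ratio was 0.982. Of the 37 genes, 28 (75.7%) lay within 1.25-fold of equal shares, against 65.6% of all 8363 genes. The median log2 ratio of the members was -0.05 against -0.001 over all genes, and the members ran between -1.197 and 0.58. Ratios lay above 1 for 17 members and below 1 for 20, against 4172 above and 4191 below over all genes.

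A gene was counted as 2-fold different where the ratio was at least 2 or at most 0.5 and the interval excluded 1. No member was 2-fold higher in the IL-10 library, where 1.75% of all genes were, and 1 member, Atg16l2, was 2-fold lower, where 1.49% of all genes were. At 1.5-fold, 0 members were higher (4.28% of all genes) and 2 were lower (4.02% of all genes), Atg16l2 and Atg4c. Without a fold limit, the interval lay above 1 for 3 members (8.11%), against 12.8% of all genes, and below 1 for 5 members (13.5%), against 13.1%. The 3 higher members were Atg9a, Atg2a and Epg5. The 5 lower members were Atg13, Atg16l2, Atg4c, Sqstm1 and Tecpr1.

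**Figure D1:**
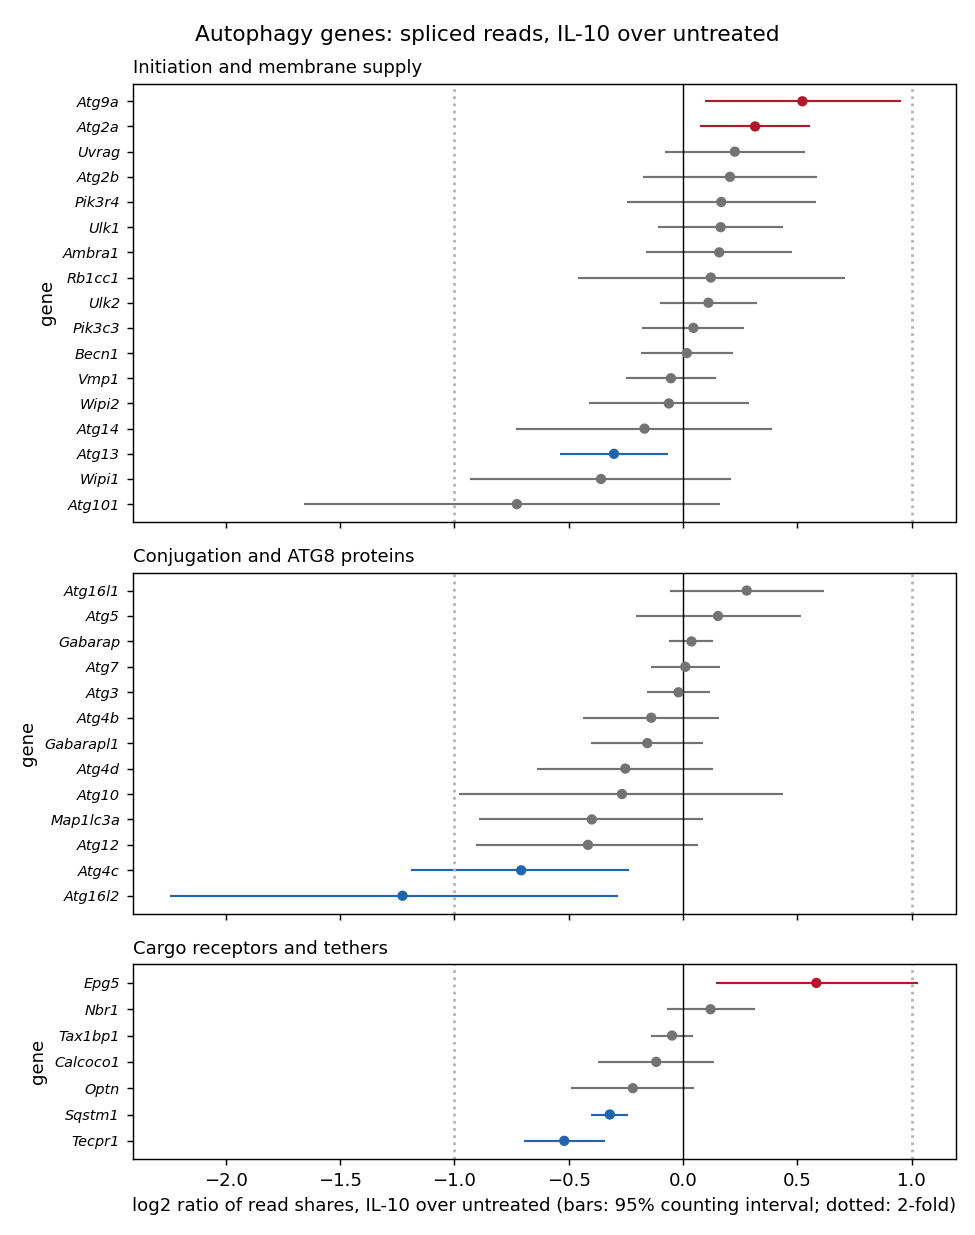
Log2 ratio of the share of spliced reads, IL-10 over untreated, for the 37 measured autophagy genes in their 3 groups. Points are ratios and bars 95% counting intervals, with red and blue where the interval lies above and below equal shares; 29 of the 37 bars cross the zero line, and Atg16l2 lies past the dotted line of a 2-fold difference.

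Spread among the members was wider than counting error alone gives, as it was for other genes. Among the 19 members with 100 to 500 reads, the SD of the log2 ratios was 0.333, where counting error accounts for 0.204. The 3496 genes of that depth had 0.346 and 0.203. Among the 15 members with 500 to 5000 reads, the SD was 0.204 against 0.096 from counting, and 0.253 against 0.095 over 2205 genes. An interval that excludes 1 is therefore no measure of how a second pair of libraries would behave.

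In abundance, the members spanned a range of more than 100-fold. Levels were set as the median number of reads per matched intron, scaled to 1000000 reads on named introns, so that genes with many introns are not counted higher. Gabarap, an ATG8 protein, led with a level of 132 in the IL-10 library against 118 in the untreated library. The cargo receptor gene Sqstm1 came next with 60.9 with IL-10 and 71.1 without, ahead of the ATG8 protein gene Gabarapl1 with 27.4 with IL-10 and 26.9 without. The conjugating enzyme gene Atg3 (24.2 with IL-10 and 23.5 without) and the cargo receptor gene Tax1bp1 (21.9 with IL-10 and 19.1 without) followed closely. The first 5 places thus went to members of the conjugation and receptor groups, and Map1lc3a, Calcoco1, Nbr1 and Optn of those groups lay lower. All genes of initiation lay below these 5, led by Becn1 with 8.6 with IL-10 and 10.6 without, Vmp1 with 6.51 with IL-10 and 7.76 without, and Atg13 with 3.26 with IL-10 and 3.75 without. The lowest levels were those of Epg5 (0.521 with IL-10 and 0.517 without) and Atg16l2 (0.261 with IL-10 and 0.517 without).

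**Figure D2:**
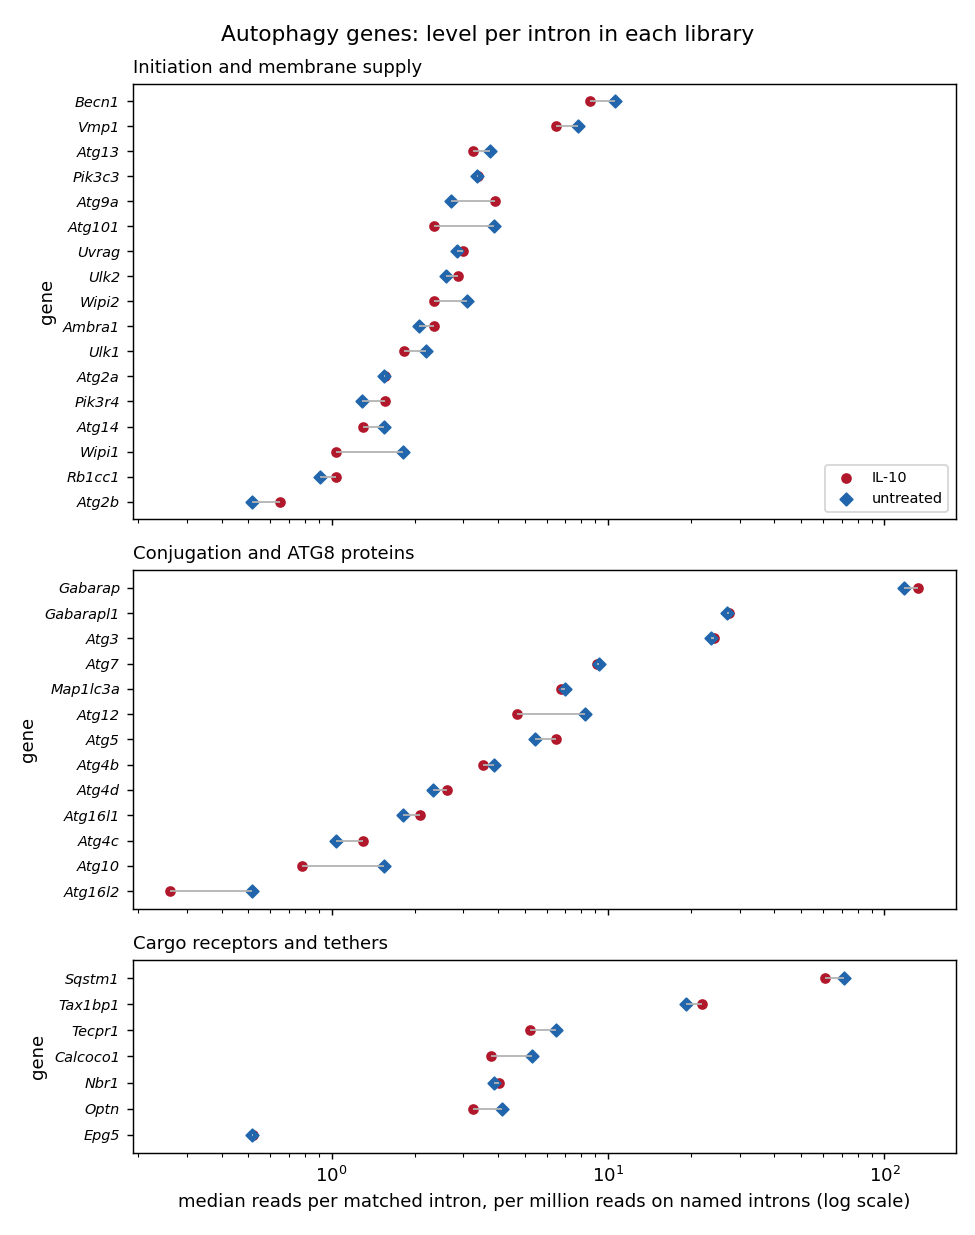
Level of each measured autophagy gene in the IL-10 library (red circles) and the untreated library (blue diamonds), as the median reads per matched intron, scaled to 1000000 reads on named introns, on a log scale. Gabarap (132 with IL-10 and 118 without) and Sqstm1 (60.9 with IL-10 and 71.1 without) stand above all others, and Epg5 (0.521 with IL-10 and 0.517 without) and Atg16l2 stand lowest.

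Autophagy initiation showed no shared direction. All 17 genes were measured, with 3415 reads in the IL-10 library against 3310 in the untreated library, a summed ratio of 1.04 (0.991 to 1.09). The median log2 ratio was 0.11 against -0.001 over all genes, with 11 ratios above 1 and 6 below. Of the 17 genes, 14 lay within 1.25-fold.

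In the ULK1 complex, which starts autophagosome formation, the kinase and its paralogue were near equal shares while a regulatory subunit was lower. Ulk1 had 237 reads in the IL-10 library against 213 in the untreated library (ratio 1.12, 0.928 to 1.35). Ulk2 had 387 with IL-10 and 361 without (1.08, 0.933 to 1.25). Atg13, on chromosome 2, encodes the subunit that links the kinase to the rest of the complex. It had 273 reads in the IL-10 library against 339 in the untreated library, a ratio of 0.811 (0.689 to 0.954) and a log2 ratio of -0.30. Of its 15 introns with at least 5 reads, 10 lay on the lower side. Counted on its most-read intron alone, Atg13 had a log2 ratio of 0.175, which turns the direction. The scaffold gene Rb1cc1 had 54 reads with IL-10 against 50 without (1.09, 0.727 to 1.63). Its value is uncertain, since sequence of 16 of its 23 exon joins also occurs in the pseudogene Gm13961. Atg101, the partner of Atg13, rested on 18 reads with IL-10 against 30 without (0.604, 0.317 to 1.12), too few to set it apart from equal shares.

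The lipid kinase complex, which makes phosphatidylinositol 3-phosphate on the growing membrane, differed little. All 6 of its genes lay within 1.25-fold, with 1277 reads in the IL-10 library against 1219 in the untreated library (summed ratio 1.06, 0.975 to 1.14). Becn1, the scaffold known as Beclin, had 408 reads with IL-10 against 406 without (1.01, 0.880 to 1.16). The catalytic subunit gene Pik3c3 had 340 with IL-10 and 332 without (1.03, 0.884 to 1.204). Pik3r4, which encodes the regulatory subunit, had 107 reads with IL-10 against 96 without (1.12, 0.845 to 1.495). Every one of these intervals includes 1, and so do the next 3. Atg14, the subunit that directs the complex to autophagosomes, had 53 reads with IL-10 against 60 without (0.890, 0.603 to 1.31). Uvrag, the subunit that takes its place on endosomes, had 194 with IL-10 and 167 without (1.17, 0.947 to 1.45), and Ambra1, a regulator of Beclin, had 175 with IL-10 and 158 without (1.12, 0.895 to 1.39).

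Genes that supply membrane held both higher members of the initiation group. Atg9a, on chromosome 1, encodes the membrane-spanning lipid scramblase carried on vesicles to the forming autophagosome. It had 114 reads in the IL-10 library against 80 in the untreated library, a ratio of 1.44 (1.07 to 1.93) and a log2 ratio of 0.52. Of its 9 introns with at least 5 reads, 8 lay on the higher side. With the 4 introns that Atg9a shares with the gene model Gm29253, its interval came to include 1: then it had 135 reads with IL-10 against 105 without (1.29, 0.996 to 1.69). Atg2a, on chromosome 19, encodes a lipid transfer protein that works beside Atg9a. It had 321 reads with IL-10 against 260 without, a ratio of 1.24 (1.05 to 1.47) and a log2 ratio of 0.31, with 16 of 29 introns on the higher side. Its level per intron was 1.56 in the IL-10 library against 1.55 in the untreated library, so that the excess of the sum is not seen in its median intron. The paralogue Atg2b had 127 reads with IL-10 against 111 without (1.15, 0.887 to 1.501). The phosphoinositide-binding proteins lay on the other side of 1, with Wipi1 at 48 reads with IL-10 against 62 without (0.780, 0.524 to 1.16) and Wipi2 at 136 with IL-10 and 143 without (0.958, 0.752 to 1.22). Vmp1, a membrane protein of the endoplasmic reticulum, had 423 reads with IL-10 against 442 without (0.964, 0.842 to 1.10). Sequence of 3 of its 11 exon joins also occurs in the pseudogene Gm1969.

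Among the conjugation genes, 13 of 16 were measured, with 4432 reads in the IL-10 library against 4559 in the untreated library (summed ratio 0.979, 0.940 to 1.02). Their median log2 ratio was -0.16 against -0.001 over all genes. Of the 13 ratios, 9 lay below 1, as did 4191 of the 8363 ratios of all genes. Atg7 and Atg3, the enzymes with the most reads, were close to equal shares. Atg7, which activates both ubiquitin-like proteins, had 708 reads in each library (1.01, 0.906 to 1.12). Atg3, which transfers ATG8 proteins to lipid, had 843 with IL-10 and 861 without (0.986, 0.896 to 1.09). Atg5, the acceptor of Atg12, had 138 with IL-10 and 125 without (1.11, 0.867 to 1.43). Genes of the same system with fewer reads were less tightly measured. Atg12 had 64 reads with IL-10 against 86 without (0.750, 0.534 to 1.05), and Atg10, which joins Atg12 to Atg5, had 33 with IL-10 and 40 without (0.831, 0.508 to 1.35).

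The ATG16-like genes differed from each other in ratio. Atg16l1, which brings the conjugate of Atg5 and Atg12 to the membrane, had 165 reads in the IL-10 library against 137 in the untreated library (1.21, 0.961 to 1.53). Atg16l2, its homologue on chromosome 7, had 14 in the IL-10 library against 33 in the untreated library. Its ratio was 0.427 (0.211 to 0.821) with a log2 ratio of -1.197, and all 4 introns with at least 5 reads were lower. It was the only member past 2-fold, and with 47 reads in all it was also the least covered.

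The ATG4 proteases, which trim ATG8 proteins before conjugation and release them afterwards, lay below 1 in all 3 measured members. Over all genes, 4191 of 8363 ratios lay below 1. The 3 proteases had 350 reads in the IL-10 library against 431 in the untreated library, a summed ratio of 0.818 (0.708 to 0.944). Of the 3 genes, the interval excluded 1 for Atg4c alone. Atg4c, on chromosome 4, had 62 reads with IL-10 against 102 without, a ratio of 0.612 (0.439 to 0.848) and a log2 ratio of -0.70. Of its 6 introns with at least 5 reads, 4 lay on the lower side, but its level per intron was 1.30 in the IL-10 library against 1.03 in the untreated library. Atg4d had 105 reads with IL-10 against 126 without (0.840, 0.642 to 1.10). Atg4b had 183 with IL-10 and 203 without (0.908, 0.740 to 1.11), a value that is uncertain because 6 of its 12 exon joins also occur in the pseudogene Gm2774.

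ATG8 proteins, which coat the autophagosome membrane and bind the receptors, were represented by Gabarap, Gabarapl1 and Map1lc3a. Gabarap had 1792 reads in the IL-10 library against 1760 in the untreated library (1.03, 0.960 to 1.10). Sequence of 1 of its 3 exon joins also occurs in the pseudogene Gm45678. Its introns differed: 1 had 193 reads with IL-10 against 128 without (1.519, 1.209 to 1.915). The most-read intron had 1089 with IL-10 and 1174 without (0.9345, 0.860 to 1.02). Gabarapl1 had 261 with IL-10 and 293 without (0.897, 0.757 to 1.06), and the LC3 gene Map1lc3a had 64 with IL-10 and 85 without (0.759, 0.540 to 1.06). None of the intervals of these 3 gene sums excludes 1, although all 3 introns of Map1lc3a lay on the lower side. The LC3 gene Map1lc3b, the ATG8 protein gene Gabarapl2 and the protease gene Atg4a had no usable intron. Map1lc3b had 0 junctions at its annotated introns in either library, while Gabarapl2 had 1 junction with 0 reads in the IL-10 library against 1 in the untreated library. Atg4a had a lone junction with 2 reads with IL-10 against 0 without. These genes share a feature of sequence: all 3 exon joins of Map1lc3b occur in annotated pseudogenes, as do all 3 of Gabarapl2, and all 12 of Atg4a occur in the retrogene Atg4a-ps. No measured member had every exon join in such a copy. The part of these copies in the lack of spliced reads was not tested. No level can be given for these 3 genes, and their absence from the lists is no sign that they were not expressed.

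The 7 receptors and tethers were lower in sum, with 5515 reads in the IL-10 library against 6344 in the untreated library (0.876, 0.845 to 0.908). That sum rests largely on Sqstm1, and without it the summed ratio was 0.933. Sqstm1, on chromosome 11, encodes the receptor that carries ubiquitinated proteins into autophagosomes and is itself degraded with them. It had 2197 reads in the IL-10 library against 2763 in the untreated library, a ratio of 0.801 (0.757 to 0.848) and a log2 ratio of -0.32. Of its 8 introns, 7 lay on the lower side, and 5 had an interval below 1. The exception had 42 reads in each library. On the most-read intron alone, with 683 reads in the IL-10 library against 753 in the untreated library, Sqstm1 had a log2 ratio of -0.13 and an interval that included 1. Tax1bp1, a receptor for ubiquitinated bacteria and protein aggregates, had 1837 reads with IL-10 against 1913 without (0.967, 0.907 to 1.03). Optn, the receptor optineurin, had 214 with IL-10 and 251 without (0.859, 0.712 to 1.04). Nbr1, a partner of Sqstm1 in aggregate clearance, had 465 with IL-10 and 431 without (1.09, 0.951 to 1.24), and Calcoco1, a receptor for parts of the endoplasmic reticulum, had 248 with IL-10 and 271 without (0.922, 0.773 to 1.10). Of these receptors, the interval excluded 1 for Sqstm1 alone.

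The tethers, which hold autophagosomes to lysosomes before fusion, lay on opposite sides. Tecpr1, on chromosome 5, encodes a lysosomal tether that binds the conjugate of Atg5 and Atg12. It had 444 reads in the IL-10 library against 641 in the untreated library, a ratio of 0.698 (0.617 to 0.789) and a log2 ratio of -0.52. Lower values were found on 19 of its 22 introns with at least 5 reads. The most extreme intron had 2 reads in the IL-10 library against 23 in the untreated library (0.0876). Epg5, on chromosome 18, encodes a tether that brings autophagosomes to late endosomes and lysosomes. It had 110 reads in the IL-10 library against 74 in the untreated library, a ratio of 1.498 (1.10 to 2.04) and a log2 ratio of 0.58, with 10 of 14 introns on the higher side. Its reads were thinly spread, and its level per intron was 0.521 in the IL-10 library against 0.517 in the untreated library.

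**Figure D3:**
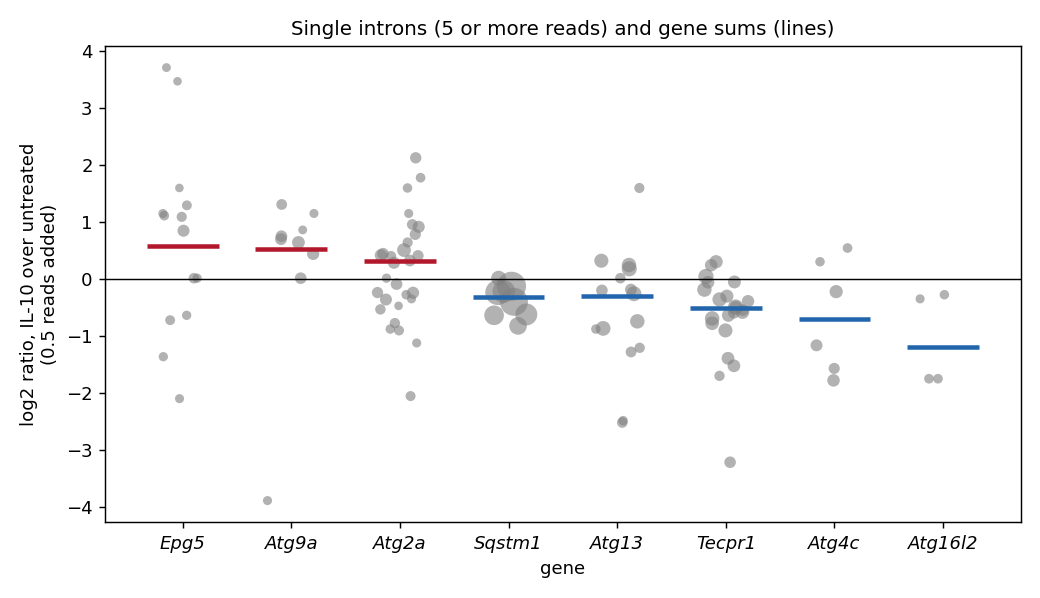
Log2 ratio, IL-10 over untreated, of each intron with 5 or more reads (grey points, larger with more reads, 0.5 reads added) and of the gene sum (lines, red above and blue below zero) for the 8 members whose interval excludes 1. Points of Sqstm1 lie close to its line, between -0.83 and 0.01, while those of Epg5 run between -2.10 and 3.71.

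Single introns showed how evenly each gene's difference was spread. In Sqstm1 the 8 introns ran between -0.83 and 0.01 on the log2 scale, and in Atg16l2 the 4 introns between -1.75 and -0.28. In Tecpr1 the 22 introns ran between -3.22 and 0.30, and 4 had an interval below 1. The introns of Atg13 (-2.52 to 1.60), Atg4c (-1.78 to 0.54), Atg2a (-2.06 to 2.13), Atg9a (-3.90 to 1.31) and Epg5 (-2.10 to 3.71) lay on both sides of zero. Taking the most-read intron alone, the intervals of all 8 members included 1, with fewer reads behind each. The log2 ratio there was -1.75 for Atg16l2, 0.85 for Epg5, 0.64 for Atg9a, 0.51 for Atg2a and -0.50 for Tecpr1, about as far from zero as the sums or farther. It was closer to zero for Atg4c (-0.23) and Sqstm1 (-0.13), and on the other side for Atg13. That setting singled out other members, Ulk1 on the higher side and Optn on the lower side.

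Ratios also differed with the number of matched introns, a grouping made after the values were seen. The 8 members with at least 20 matched introns had a median log2 ratio of 0.14. Of these 8, 7 (87.5%) lay above 1, Tecpr1 being the exception, as did 64.7% of all genes with that many introns. The 4 members with 1 to 4 introns had a median of -0.40. Over all genes the medians were 0.09 for 1201 genes with at least 20 introns and -0.05 for 1338 genes with 1 to 4. The insert sizes given for the libraries were 188 bp with IL-10 and 197 bp without. The part of intron number and insert size in the members' ratios was not tested.

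No splice choice of the members passed the threshold for a difference between the libraries. At 39 donor or acceptor sites in 15 members, each with at least 20 reads in each library, 57 junctions were compared by their share of the reads at the site. None differed by at least 20 percentage points with intervals that did not overlap, and over all genes 23 of 11527 junctions (0.2%) did. Only 15 of the 39 sites, in 9 members, had a junction with a share of 5 to 95% in either library. At the other sites nearly all reads of both libraries lay on the same junction. The result for the members therefore rests mainly on those 15 sites. The 3 segments that can be left out without a change of reading frame, at sites of this depth, are shown, because the choice at each alters the protein made by an autophagy gene. Capitals mark the segment and lower case the 12 bases of exon on each side, 5′ to 3′ on the gene's strand. Coordinates are those of the mm9 junction lists, and the letters come from GENCODE M21 transcripts of the GRCm38 build, in which the segments have the same length.
Sqstm1, 114 bases, chr11:50015901-50016014, minus strand: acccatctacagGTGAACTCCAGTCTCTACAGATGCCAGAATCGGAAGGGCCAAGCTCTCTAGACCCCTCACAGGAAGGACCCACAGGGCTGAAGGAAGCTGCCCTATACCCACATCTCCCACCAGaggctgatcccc
Atg13, 78 bases, chr2:91520077-91520154, minus strand: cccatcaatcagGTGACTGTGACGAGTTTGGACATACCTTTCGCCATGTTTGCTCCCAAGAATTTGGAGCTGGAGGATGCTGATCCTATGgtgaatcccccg
Nbr1, 111 bases, chr11:101433776-101433886, plus strand: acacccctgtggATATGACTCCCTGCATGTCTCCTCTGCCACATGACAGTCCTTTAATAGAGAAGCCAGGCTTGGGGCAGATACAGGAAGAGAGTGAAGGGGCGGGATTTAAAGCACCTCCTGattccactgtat

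The Sqstm1 segment holds part of the motif by which this receptor binds Keap1, the inhibitor of the antioxidant factor Nrf2, since the motif spans the start of the capitals. At the acceptor that follows, the junction that leaves the segment out had 42 of 105 reads in the IL-10 library, a share of 40% (30.6 to 50.02, exact binomial interval). In the untreated library it had 42 of 155 reads, a share of 27.1% (20.3 to 34.8). The shares differed by 12.9 percentage points and their intervals overlapped. The junction that keeps the segment had 63 reads in the IL-10 library against 113 in the untreated library, a ratio of 0.562, the lowest of the 8 introns. The junction that leaves it out had equal reads in both libraries, a ratio of 1.007 (0.641 to 1.58). That interval also holds the ratio of the gene sum, 0.801, so the short form cannot be set apart from the gene as a whole.

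Intervals also overlapped for the other segments. The Atg13 exon of 78 bases was skipped in 8 of 54 reads at its acceptor in the IL-10 library (14.8%, 6.62 to 27.1) and in 8 of 49 in the untreated library (16.3%, 7.32 to 29.7). Counted at the donor, skipping took 8 of 35 reads (22.9%) with IL-10 and 8 of 54 (14.8%) without. The Nbr1 exon of 111 bases was skipped in 6 of 30 reads in each library (20%, 7.71 to 38.6). Nbr1 also skipped exons of 58 and 106 bases, lengths that shift the frame. At the donor before it, the exon of 58 bases was left out in 1 of 37 reads in the IL-10 library (2.7%, 0.0684 to 14.2) and in 8 of 43 in the untreated library (18.6%, 8.39 to 33.4), a gap of -15.9 percentage points. Of those 8 reads, 4 lay on an unannotated junction that leaves out both exons and had 0 reads in the IL-10 library. At the acceptor after it, the shares were 1 of 38 (2.63%) with IL-10 and 4 of 43 (9.30%) without. The exon of 106 bases was left out in 4 of 63 reads at its acceptor in the IL-10 library (6.35%, 1.76 to 15.5) and in 8 of 63 in the untreated library (12.7%, 5.64 to 23.5). At its donor the shares were 4 of 41 (9.76%) with IL-10 and 4 of 43 (9.30%) without. At this depth a difference of a few points was not detectable, and no gap below 20 percentage points could pass the threshold. Intervals that overlap do not show that the shares are equal. Atg5 had a long junction outside the annotation, of 43227 bases, with 2 of 28 reads at its donor in the IL-10 library against 5 of 32 in the untreated library. In Atg7, the main first exon took 35 of 39 reads (89.7%) in the IL-10 library against 47 of 50 (94%) in the untreated library.

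**Figure D4:**
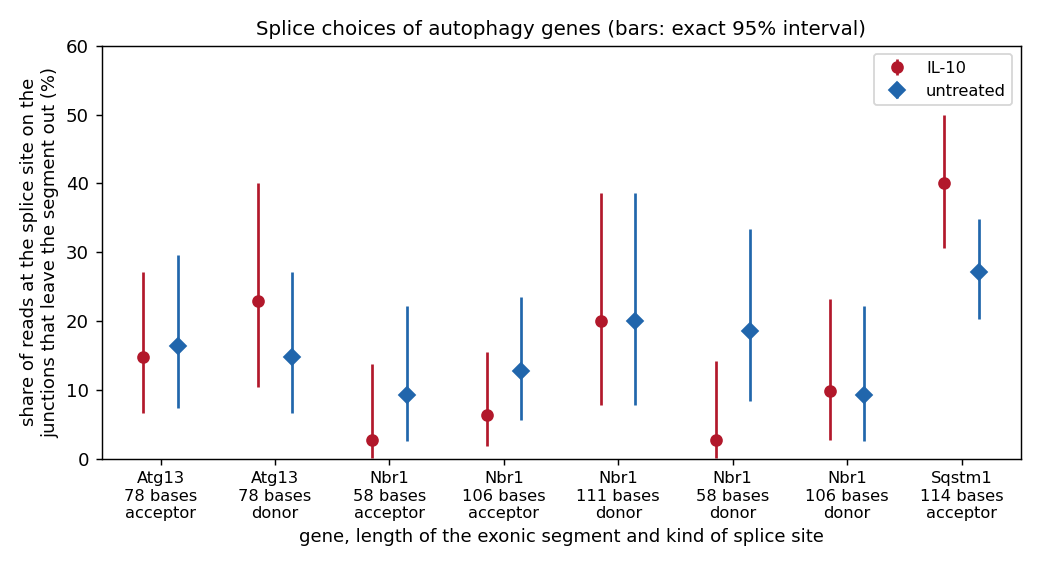
Share of reads at a splice site (%) on the junctions that leave an exonic segment out, for 5 coding segments of Atg13, Nbr1 and Sqstm1 at 8 sites, in the IL-10 library (red circles) and the untreated library (blue diamonds), with exact 95% binomial intervals. The widest gaps are those of the 58-base Nbr1 exon at its donor, 2.7% against 18.6%, and of the Sqstm1 segment, 40% against 27.1%, and the intervals overlap in every pair.

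Genes around the core machinery were counted in the same way, to be read against the 12.8% of all genes with an interval above 1 and the 13.1% with one below. Of 29 genes of nutrient sensing upstream of the ULK1 complex, 24 were measured, 2 had an interval above 1 and 0 below 1, and the median log2 ratio was 0.08. Mtor, the kinase that holds autophagy down when nutrients are plentiful, had 355 reads in the IL-10 library against 295 in the untreated library (1.21, 1.04 to 1.42). Lamtor2, part of the lysosomal anchor of that kinase complex, had 726 with IL-10 and 636 without (1.15, 1.03 to 1.28). Rictor, a subunit of the other complex of that kinase, had 81 with IL-10 and 64 without (1.27) with an interval that included 1. Of 18 accessory genes 13 were measured, 1 above and 2 below, which is near the shares over all genes. Mtmr3, a lipid phosphatase that opposes the lipid kinase complex, had 190 reads with IL-10 against 146 without (1.31, 1.05 to 1.64). Its relative Mtmr14 had 166 with IL-10 and 237 without (0.706, 0.575 to 0.864), and the sorting nexin gene Snx4 had 240 with IL-10 and 320 without (0.756, 0.636 to 0.896). These phosphatases thus lay on opposite sides. All 14 fusion genes were measured, 3 above and 2 below, also near those shares, with a median of -0.02. The small GTPase gene Rab7 had 538 reads with IL-10 against 439 without (1.23, 1.09 to 1.40), the SNARE gene Vamp8 had 173 with IL-10 and 133 without (1.31, 1.04 to 1.66), and Arl8b, which moves lysosomes outward, had 525 with IL-10 and 631 without (0.838, 0.745 to 0.943).

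Receptors and regulators for single organelles had 14 measured genes of 20, 2 with an interval above 1 (12.8% of all genes) and 5 below (13.1% of all genes), and a median of -0.13. Ccpg1, a receptor for endoplasmic reticulum, had 46 reads in the IL-10 library against 72 in the untreated library (0.644, 0.435 to 0.945). Fundc1, a receptor for mitochondria, had 50 with IL-10 and 76 without (0.663, 0.454 to 0.960). Wdfy3, a large adaptor for aggregates, lay on the other side with 585 with IL-10 and 432 without (1.36, 1.203 to 1.55). Of the NADPH oxidase, which drives the attachment of ATG8 proteins to phagosomes, the subunit genes Cyba (8104 reads with IL-10 against 11591 without, 0.704, 0.685 to 0.725) and Ncf1 (1458 with IL-10 and 1737 without, 0.846, 0.788 to 0.907) had intervals below 1. The intervals of the subunit genes Cybb (2090 with IL-10 and 2099 without, 1.003, 0.944 to 1.07) and Ncf4 (655 with IL-10 and 668 without, 0.988, 0.886 to 1.10) included 1. The transcription factor gene Tfeb, which activates lysosomal and autophagy genes, had 317 reads with IL-10 against 424 without (0.753, 0.649 to 0.873). Its relative Mitf stood at 1.22 (266 reads with IL-10 against 220 without, 1.01 to 1.46) and Tfe3 at 1.02 (908 with IL-10 and 899 without). The list of transcription factors, with 5 measured of 7, had a median of 0.03.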

How the data were processed

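RNA of IL-10-treated and of untreated macrophages was sequenced, 1 library each, and groups were taken from the sample titles, since the protocol text of both samples is the same. Reads were aligned to mm9 with TopHat and processed with Cufflinks, without versions, per the submitters' processing notes. The deposited values are, per the file headers and columns, a read count for each splice junction, without scaling. Junctions took a gene name where chromosome, strand and exact length matched an intron of GENCODE M21 (GRCm38) and 2 or more of the gene's introns had the same offset of up to 20 Mb. Reads on introns of 1 gene were summed and divided by the library's total of such reads. Of 131057 junctions, 106464 (81.2%) matched. Intervals are exact conditional binomial (Clopper-Pearson), and log2 ratios used a pseudocount of 0.5 reads. Genes needed 20 reads over both libraries. Splice shares needed 20 reads at a site in each library. Exon joins were searched in other transcripts with BLAST 2.17.0 (windows of 50 bases, at least 40 aligned, 95% identity, 10 bases on each side). The interval procedure was tried on simulated counts with counting error alone, which cannot test it against the wider spread of the real ratios. All members are given. Other genes are up to 3 per list with at least 100 reads and the largest absolute log2 ratio. Cybb, Ncf4, 4 IL-10 response genes and cell type markers are named beside them. Some results that this rule covers are not reported here. Members and lists were chosen with earlier results of these data known. Alternatives were other scalings (the TMM factor of edgeR 4.0.16, DESeq2 1.42.0 median-of-ratios size factors, all junction reads), minimum reads, folds, intervals, pseudocounts and ways of summing introns. Analyses ran in Python 3.11.15 (numpy 2.4.6, scipy 1.17.1, pandas 2.3.3, matplotlib 3.10.9) and R 4.3.3.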

Additional observations from a re-analysis of the deposited data

How the results depend on the processing

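No paired analysis was possible because each group holds 1 library. Under the TMM factor, the median-of-ratios size factor, the total of all junction reads and a pseudocount of 5 reads, the intervals of all 8 members that excluded 1 still did, and 7 did with shared introns or with all junctions within the gene span, Atg9a being the exception. With 99% intervals 6 did, without Atg9a and Atg13. On the most-read intron alone, with fewer reads, 0 of the 8 did, although the log2 ratios of Atg16l2 (-1.75), Epg5 (0.85), Atg9a (0.64), Atg2a (0.51) and Tecpr1 (-0.50) were about as large or larger. There, 1 member was 2-fold higher and 0 were 2-fold lower, 1 had an interval above 1 and 1 an interval below 1, the median log2 ratio of receptors and tethers was 0.05 and their summed ratio 0.95, and Atg13 reversed to 0.175. The count of members 2-fold lower, 1 as reported, was 0 with at least 100 reads, 2 at 1.5-fold and 0 at 3-fold. Without Sqstm1 the summed ratio was 0.982 for all members and 0.933 for receptors and tethers. Splice choices had 0 called junctions under each setting tried, with shares at most sites resting on fewer than 100 reads. Limits are the single library per group and the few reads of genes such as Atg16l2, Atg101 and Atg10, whose ratios carry wide intervals.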

Other observations

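Promoters of the members (250 bases before to 50 after the start, RefSeq, GRCm38.p6) were searched on both strands for 3 motifs, with 39 promoters of 33 of the 40 members matched. CACGTG, the core of the E-box bound by factors such as Tfeb, was found in 4 promoters (10.3%), those of Atg14, Atg3, Atg5 and Atg7, against 7.15% of all 32851 promoters. The longer TCACGTGA, which contains CACGTG, was found in that of Atg3 alone (2.56%, against 0.974% of all). TTCNNNGAA, the core of the sites bound by Stat3, was found in 4 promoters (10.3%), those of Gabarap, Gabarapl1, Nbr1 and Wipi1, against 8.3% of all. A match describes letters and not a bound site. In the measured members, 64 junctions outside the annotation had 119 reads in the IL-10 library against 136 in the untreated library (0.882, 0.683 to 1.14), most of them in Atg7 with 75 reads with IL-10 and 70 without.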
